A study of Mus musculus with 8 samples.

Results

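MHC class I antigen presentation was examined through 10 genes in RNA sequencing of cells isolated as microvascular endothelial cells with and without LRP1. LRP1 is an endocytic receptor related to the low-density lipoprotein receptor. The genes were B2m, H2-K1 and H2-D1, which encode the chains of the class I molecule, Tap1, Tap2 and Tapbp, which encode the peptide transporter and its partner in loading, Psmb8, Psmb9 and Psmb10, which encode the catalytic subunits of the immunoproteasome, and Nlrc5, which encodes a transactivator of class I genes. They were taken by symbol from a table of 22520 genes, in which 9 of the 10 had a row, and all 9 were among the 11389 genes tested. Nlrc5 is not analysed here.

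Class I molecules show fragments of a cell's own proteins to CD8 T cells. Proteasomes cut proteins into peptides, the TAP transporter moves the peptides into the endoplasmic reticulum, tapasin (encoded by Tapbp) holds the empty class I molecule at the transporter, and the heavy chain with its light chain, beta-2 microglobulin, carries the peptide to the surface. Interferons are the best known inducers of these genes, and the subunits encoded by Psmb8, Psmb9 and Psmb10 then take the places of those encoded by Psmb5, Psmb6 and Psmb7. Endothelial cells line the vessels, carry class I molecules at their surface and are in contact with circulating T cells.

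There were 4 libraries from LRP1 knockout mice (LRP1 KO, LRP1 f/f; Cdh5-CreER+/-) and 4 from their littermate controls (WT, LRP1 f/f; Cdh5-CreER-/-), all C57BL/6 at postnatal day 14. The controls thus carried the floxed alleles as well, without Cre. The knockout depended on an inducible Cre under the Cdh5 promoter, which is used to delete floxed genes in endothelial cells. The labels give each library as a mix of heart, liver and lung cells, and the study's methods describe isolation with PECAM-1 beads. The number of animals behind a library and the age at induction are not given in the sources used here, so p-values measure the spread between these libraries, which may be technical.

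Expression is given in FPKM, in which fragments are divided by transcript length and by the library's mapped total, so that levels of different genes can be compared. The authors' values had been quantile normalized, which gives every library nearly the same sum, so sequencing depth is unknown and precision was judged from the 4 libraries of a group alone. Lrp1, the targeted gene, ranged from 103 to 140 FPKM across the WT libraries and from 2.79 to 7.72 FPKM across the LRP1 KO libraries, with library 4 the highest of the latter. This library also stood apart on the first principal component, where it scored 0.102, the rest of LRP1 KO 17.2 to 27.3, and WT -24.1 to -12.9. The values of the 9 genes and of their ratios are therefore also given without it. The endothelial label was checked as well. Cdh5, the gene of VE-cadherin, ranged from 8.87 to 11.2 FPKM across WT, and LRP1 KO libraries 1 to 4 held 47.3, 21.5, 33.9 and 8.56 FPKM of it. Pecam1, the gene of the protein used for isolation, ranged from 6.80 to 8.76 FPKM across WT, and its LRP1 KO values were 36.3, 18.5, 26.2 and 6.72 FPKM. The fibroblast markers summed to 1999 to 3613 FPKM over the 8 libraries, against 207.4 to 749.9 FPKM for the endothelial markers. In LRP1 KO library 4 they summed to 3207 FPKM, beside the 7.72 FPKM of Lrp1. Sums over different genes give no shares of cells, but these sums do not bear out a purely endothelial label.

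The sequences before the start sites of these genes show what the heavy chain genes have in common. Promoters of 8 of the 10 genes were found in the RefSeq table (GRCm38.p6, 250 bases before the start used). The classical class I genes carry an enhancer close to the start, in which a site for NF-kB stands beside a site for interferon regulatory factors (IRF). The stretches of H2-K1 (chr17:34000429-34000458, minus strand, positions -111 to -82 from the start) and H2-D1 (chr17:35262923-35262952, plus strand, positions -171 to -142) are shown because H2-D1 was called in the comparison and H2-K1 was not, with the NF-kB match first and the IRF match second in capitals.
H2-K1: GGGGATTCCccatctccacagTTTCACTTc
H2-D1: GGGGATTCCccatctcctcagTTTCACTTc
These 30 bases differed at 1 position, A18T, counted from 1 at the 5′ end with the base of H2-K1 first, and both capital parts were identical. In GENCODE M21 the H2-D1 stretch lies inside an exon of another transcript of the same gene.

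B2m has an IRF match of its own and a CCAAT box (shown in reverse, ATTGG), in capitals in the stretch from -140 to -41 (chr2:122147547-122147646, plus strand). Only matches to the letters searched, given below the stretch, are in capitals.
B2m: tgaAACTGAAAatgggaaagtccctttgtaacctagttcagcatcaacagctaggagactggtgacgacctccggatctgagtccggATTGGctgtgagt
The letters searched on both strands were AANNGAAA for the IRF core, GGGNNTTCC for NF-kB, and CCAAT. They occurred in 21.3%, 4.98% and 33.8% of all 32851 promoters of the table. The IRF letters and the NF-kB motif were chosen after the promoters had been seen. Among the 8 promoters, the IRF core was found in H2-K1, H2-D1 and B2m, and the letters GGGNNTTCC in H2-K1 and H2-D1. NF-kB sites spelled otherwise were not searched, so a promoter without these letters, such as that of B2m, may still hold one. The CCAAT box was found in all but Psmb8 and Psmb10, and within a promoter no match overlapped another. The match of Tap1 (-222 to -218) and that of Psmb9 (-8 to -4) are the same bases, read on opposite strands. A match is a description of letters and not a site in use.

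In LRP1 KO, 4 of the 9 genes rose by limma's test with Benjamini-Hochberg adjustment over all tested genes (adjusted p under 0.05): B2m, H2-D1, Tap1 and Psmb8. The other 5 were not called, and 0 were called lower. Of all tested genes, 6.27% were called higher and 7.31% lower in LRP1 KO. The increases were modest, with mean FPKM 1.39 to 1.61 times that of WT, and 0 of the 9 genes reached the 2-fold change that the study's own rule requires, which 1.12% of all tested genes did while called higher. In 3 of the 9 genes, B2m, H2-D1 and Psmb8, the lowest LRP1 KO value exceeded the highest WT value, as in 8.84% of all tested genes. The median log2 fold change of the 9 genes was 0.16, against -0.01 over all tested genes. Without LRP1 KO library 4 the same 4 genes were called, with 12.6% of all tested genes called higher. This was the only one of the 8 fits without 1 library to keep all 4 calls. Of the 9 genes, 1 was called without LRP1 KO libraries 2 or 3 or WT libraries 3 or 4, 2 without WT library 2, and 3 without library 1 of either group. Over all tested genes, calls in either direction also fell in these fits, from 1547 with all libraries to between 512 and 1008. They rose to 3021 without LRP1 KO library 4. Each step measured contained a gene that was called and a gene that was not.

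**Figure D1:**
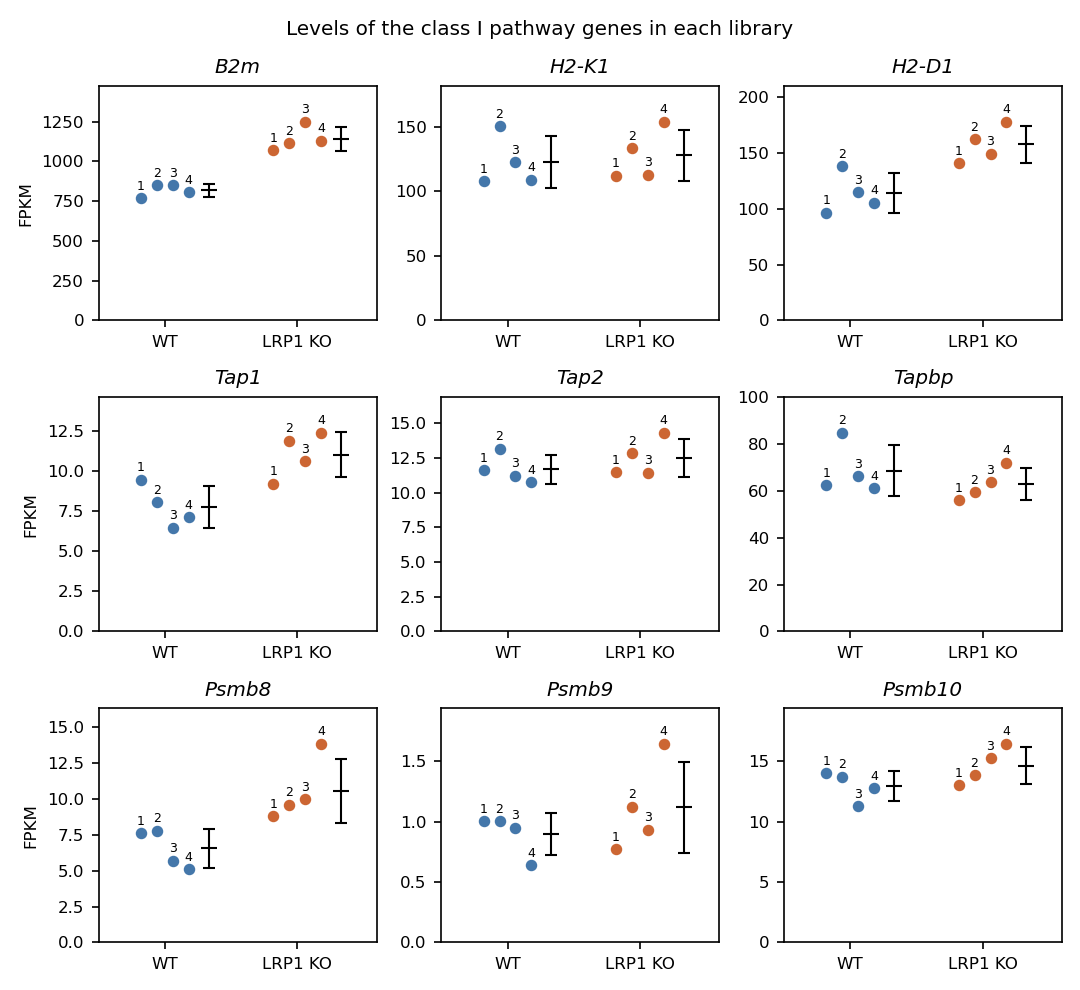
FPKM (linear axes from 0) of the 9 genes in each library, WT in blue and LRP1 KO in orange, with the library number above each point and the group mean ± SD (n = 4) as a bar. The groups do not overlap for B2m, H2-D1 and Psmb8, and LRP1 KO library 4 is the highest of its group for 8 of the 9 genes.

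The light chain gene was the most abundant of the 9 and was called in every setting tried. B2m (ENSMUSG00000060802, chromosome 2, 122147686 to 122153083 in GRCm38) measured 768, 850, 850 and 806 FPKM across WT libraries 1 to 4 and 1070, 1117, 1250 and 1131 FPKM across LRP1 KO libraries 1 to 4. The lowest LRP1 KO library was thus well above the highest WT library. From means of 819 ± 39.6 FPKM for WT and 1142 ± 76.4 FPKM for LRP1 KO (mean ± SD, n = 4 per group, as for all means given here), the log2(FPKM + 1) rise was 0.48 (SE 0.07, 95% interval 0.33 to 0.63, limma adjusted p 0.00397). The rise was 0.48 without LRP1 KO library 4, and B2m was called in all 13 other settings of the analysis. Among the genes of a library with at least 1 FPKM, B2m lay at percentile 99.2 to 99.7.

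Of the heavy chain genes, H2-D1 was called and H2-K1 was not. H2-D1 (ENSMUSG00000073411, chromosome 17, 35262730 to 35267499), which encodes the classical D heavy chain, measured 96.3, 138, 115 and 105 FPKM across WT and 140, 162, 149 and 178 FPKM across LRP1 KO. The groups did not overlap, although WT library 2 came within a few FPKM of the lowest LRP1 KO library. The means were 114 ± 17.9 and 157 ± 16.3 FPKM, and the log2 rise was 0.47 (SE 0.11, 95% interval 0.22 to 0.73, limma adjusted p 0.0283), or 0.41 without LRP1 KO library 4. H2-K1 (ENSMUSG00000061232, chromosome 17, 33996017 to 34000347), which encodes the classical K heavy chain, measured 108, 151, 123 and 109 FPKM across WT and 112, 133, 113 and 154 FPKM across LRP1 KO. Its groups overlapped almost completely. The means were 123 ± 20.0 and 128 ± 19.8 FPKM, a log2 fold change of 0.06 (SE 0.13, 95% interval -0.23 to 0.36, limma adjusted p 0.762) that turned to -0.03 without LRP1 KO library 4.

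Within a library these genes followed each other closely. The deviations of H2-K1 and H2-D1 from their group means had a Pearson correlation of 0.961 over the 8 libraries, which share tissue mix and preparation, with the highest WT value of both in library 2 and the highest LRP1 KO value of both in library 4. The difference between the fold changes of these genes was not tested, since their ratio was examined only after the values had been seen, and the ratio is given as a description. It was 89.3%, 91.4%, 93.4% and 96.5% in WT libraries 1 to 4, and 125%, 122%, 132% and 115% in LRP1 KO libraries 1 to 4. H2-K1 was thus the more abundant of the pair in each WT library and H2-D1 in each LRP1 KO library, with a log2 difference of 0.41 between the groups and of 0.45 without LRP1 KO library 4. Class I genes resemble each other, and 8.79% of all 50-base stretches of the H2-K1 transcript occur in another gene (6.94% in H2-D1), as do 14.3% of those of H2-D1 (7.40% in H2-Q1). How reads were shared between them is not given in the sources used here, so the split between these genes is uncertain.

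Of the transporter genes, Tap1 was called and Tap2 was not, and the difference between them was not tested. Tap1 (ENSMUSG00000037321, chromosome 17, 34187553 to 34197225) measured 9.45, 8.03, 6.46 and 7.10 FPKM across WT and 9.20, 11.9, 10.6 and 12.4 FPKM across LRP1 KO. LRP1 KO library 1 was below WT library 1, so the groups overlapped at that pair. The means were 7.76 ± 1.30 and 11.01 ± 1.42 FPKM, and the log2 rise was 0.46 (SE 0.12, 95% interval 0.19 to 0.73, limma adjusted p 0.0372), or 0.41 without LRP1 KO library 4. Tap2 (ENSMUSG00000024339, chromosome 17, 34203527 to 34216321), which encodes the other chain of the transporter, measured 11.6, 13.2, 11.2 and 10.7 FPKM across WT and 11.5, 12.8, 11.4 and 14.3 FPKM across LRP1 KO. Its log2 fold change was 0.09 (SE 0.09, 95% interval -0.11 to 0.29, limma adjusted p 0.508), and 0.03 without LRP1 KO library 4. As a description chosen after the values were seen, Tap1 stood at 57.5% to 81.3% of Tap2 in WT and at 80.2% to 92.9% in LRP1 KO, a log2 difference of 0.41, or of 0.42 without LRP1 KO library 4.

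Tapbp (ENSMUSG00000024308, chromosome 17, 33915899 to 33929292), the gene of tapasin, measured 62.6, 84.8, 66.2 and 61.1 FPKM across WT and 56.1, 59.5, 63.7 and 72.1 FPKM across LRP1 KO. It was the only one of the 9 genes with an estimate below 0, at -0.12 (SE 0.11, 95% interval -0.37 to 0.14, limma adjusted p 0.486), and its groups overlapped. Without LRP1 KO library 4 the estimate was -0.19. The mRNA of tapasin was several times more abundant than that of either transporter chain in every library.

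Of the immunoproteasome genes, Psmb8 rose. Psmb8 (ENSMUSG00000024338, chromosome 17, 34197721 to 34201454) encodes the subunit beta 5i, and measured 7.62, 7.80, 5.69 and 5.12 FPKM across WT and 8.81, 9.61, 9.999 and 13.9 FPKM across LRP1 KO. The groups did not overlap, and LRP1 KO library 4 was the highest by a wide margin. The means were 6.56 ± 1.35 and 10.57 ± 2.24 FPKM, and the log2 rise was 0.61 (SE 0.16, 95% interval 0.26 to 0.97, limma adjusted p 0.0344), the largest estimate of the 9 genes, or 0.49 without LRP1 KO library 4.

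Psmb10 (ENSMUSG00000031897, chromosome 8, 105935735 to 105938444), for beta 2i, measured 14.0, 13.7, 11.2 and 12.8 FPKM across WT and 13, 13.9, 15.2 and 16.4 FPKM across LRP1 KO. Its log2 fold change was 0.16 (SE 0.09, 95% interval -0.04 to 0.37, limma adjusted p 0.228), and 0.11 without LRP1 KO library 4. Psmb9 (ENSMUSG00000096727, chromosome 17, 34181987 to 34187764), for beta 1i, was scarce, with 1.002, 1.01, 0.951 and 0.639 FPKM across WT and 0.774, 1.12, 0.935 and 1.65 FPKM across LRP1 KO. It passed the filter with exactly 4 libraries of at least 1 FPKM, and its log2 fold change was 0.15 (SE 0.13, 95% interval -0.16 to 0.45, limma adjusted p 0.469). Without LRP1 KO library 4, its highest, the estimate was 0.03. Tap1 and Psmb9 are divergent neighbours with 225 bases between their RefSeq starts (chr17:34187331-34187555), and their GENCODE models overlap. Without a stated strand, reads of that overlap cannot be assigned to either gene. Of these neighbours, Tap1 was called and Psmb9 was not.

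The exchange of catalytic subunits was followed by the ratio of each immunoproteasome gene to the standard subunit it replaces within the same library. Such a ratio is free of a scaling factor common to a library, though quantile normalization can do more than scale. Psmb8 stood at 6.98%, 7.09%, 5.97% and 5.02% of Psmb5 in WT libraries 1 to 4, and at 8.19%, 9.14%, 10.14% and 13.3% in LRP1 KO libraries 1 to 4. Each LRP1 KO library exceeded the highest WT library. The means were 6.26 ± 0.972% and 10.19 ± 2.21% (SD, n = 4 each), a difference of 0.69 on the log2 scale and of 0.56 without LRP1 KO library 4. By exact permutation, two-sided, p was 0.0286, the lowest that the 70 arrangements of 4 in 8 libraries allow, and 0.114 after adjustment over the 4 ratios tested. The difference did not pass, but with this lowest p 1 fully separated ratio among 4 could not have passed on its own. The adjusted value therefore does not decide whether this ratio differs.

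Psmb9 stood at 0.555% to 0.839% of Psmb6 in WT and 0.589% to 1.32% in LRP1 KO (exact permutation p = 0.371, adjusted 0.495), a log2 difference of 0.23 that was 0.03 without LRP1 KO library 4, 0.10 without WT library 4 and 0.41 without LRP1 KO library 1. Psmb10 stood at 13% to 15.1% of Psmb7 in WT and 11.9% to 16.9% in LRP1 KO (exact permutation p = 1.0, adjusted 1.0), a log2 difference of -0.0053, or of -0.09 without LRP1 KO library 4. Psmb7 itself ranged from 86.4 to 94.9 FPKM across WT and from 97.3 to 110 FPKM across LRP1 KO (log2 fold change 0.18, limma adjusted p 0.0562). Together the immunoproteasome genes made up 6.04 ± 0.410% of the FPKM of the 6 catalytic subunits in WT and 7.35 ± 1.21% in LRP1 KO (SD, n = 4 each). The share was 6.28%, 6.496%, 5.72% and 5.67% in WT libraries 1 to 4 and 6.09%, 6.79%, 7.62% and 8.91% in LRP1 KO libraries 1 to 4, with LRP1 KO library 1 inside the WT range. The difference of the means was 0.791 percentage points without LRP1 KO library 4 and 1.19 to 1.73 without any other library. The standard subunits were thus the predominant transcripts in both groups. The heavy chains H2-K1 and H2-D1 summed to 26.6% to 34.0% of B2m in WT and to 21.0% to 29.3% in LRP1 KO, a log2 difference of -0.20 (exact permutation p = 0.200, adjusted 0.400). With LRP1 KO library 4 left out it was -0.28, and leaving out LRP1 KO library 3 or WT library 2 gave -0.12 in either case.

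**Figure D2:**
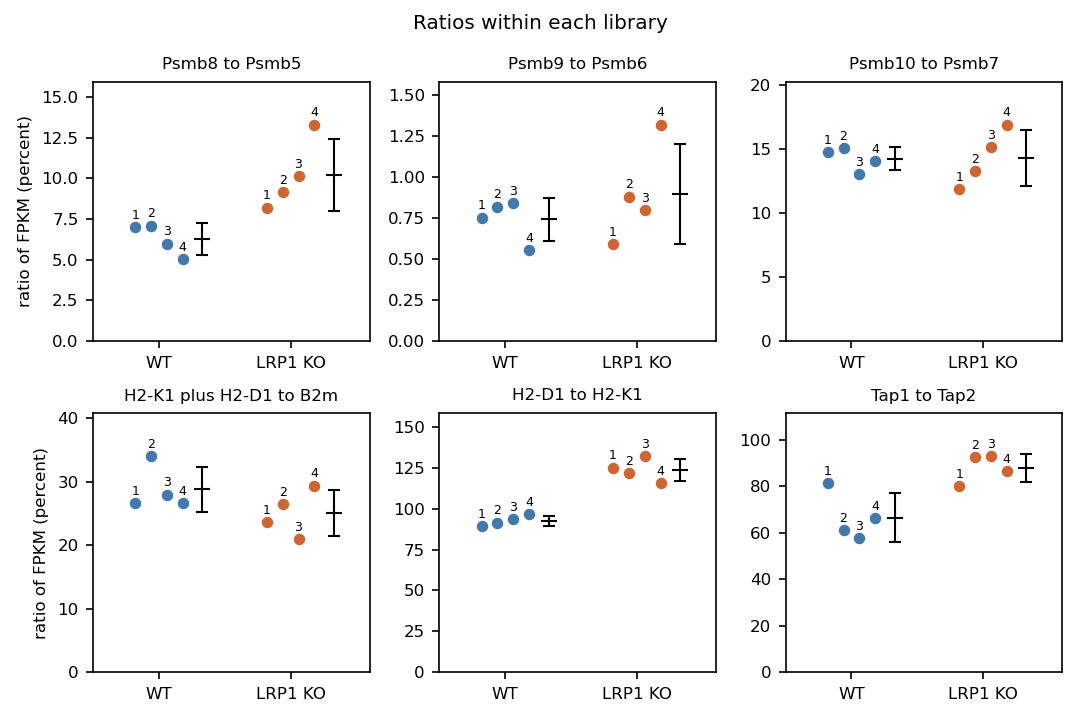
Ratios of FPKM within each library, as a percentage on linear axes from 0, with library numbers above the points and the group mean ± SD (n = 4) as a bar. Psmb8 to Psmb5 and H2-D1 to H2-K1 do not overlap between the groups, and the ratios H2-D1 to H2-K1 and Tap1 to Tap2 were added after the values had been seen.

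The other genes of the pathway were counted by list, to be read beside the 6.27% of all tested genes called higher and the 7.31% called lower. Of 29 other class I and class I-like heavy chain genes, 22 had a row and 9 were tested, of which 0 were called higher and 1 lower. H2-T22, H2-T23 and H2-Q4, nonclassical heavy chains, had estimates of 0.28, 0.30 and 0.30 (limma adjusted p 0.0531, 0.130 and 0.125). Fcgrt, the heavy chain of the neonatal Fc receptor, had an estimate of -0.45 (limma adjusted p 0.0517) and Procr, the endothelial protein C receptor, one of 0.57 (limma adjusted p 0.120). Mr1, Hfe and H2-M3 had estimates of -0.20, -0.14 and 0.06 (limma adjusted p 0.200, 0.478 and 0.631). H2-Q6 and H2-Q7 were too low to be tested, with 0.284 to 0.600 and 0.270 to 0.655 FPKM across WT and 0.640 to 1.42 and 0.943 to 1.35 FPKM across LRP1 KO. The H2-Q and H2-T genes have sequence relatives in the same family, so the division of reads among them is uncertain. Cd1d1, which presents lipids in place of peptides, had means of 6.52 ± 1.22 and 3.43 ± 0.518 FPKM and fell by 0.76 (SE 0.13, limma adjusted p 0.00821).

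Of 12 partners of loading and trimming in the endoplasmic reticulum, all were tested and 0 were called, with a median log2 fold change of 0.07. Erap1, the aminopeptidase that trims peptides for class I, had an estimate of 0.10 (95% interval -0.14 to 0.34). Of 11 standard subunits, activators and assembly factors of the proteasome, 0 were called. Psmb5 and Psmb6 had estimates of -0.002 and 0.05. The activator genes Psme1 and Psme2, which are inducible by interferon as well, had estimates of -0.20 and 0.06 (limma adjusted p 0.144 and 0.428). Of 7 tested cytosolic peptidases, Blmh, bleomycin hydrolase, fell by 0.27 (limma adjusted p 0.0429), and the other 6 were not called.

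Among the pathway lists, the largest called increase was found in interferon signaling. Of 19 tested genes for interferon receptors, signaling and class I transcription factors, 3 were called higher and 1 lower, and the median log2 fold change was -0.06. Irf7, a regulator of type I interferon genes that is itself induced by interferon, measured 14.9, 11.6, 10.9 and 11.6 FPKM across WT and 29.5, 38.6, 43.2 and 50.9 FPKM across LRP1 KO. It rose by 1.63 (SE 0.16, limma adjusted p 0.000628) with no overlap. Stat2 and Irf9, which act downstream of the type I receptor, rose by 0.55 and 0.54 (limma adjusted p 0.0148 and 0.00493), also with no overlap between groups.

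Of the other genes of the interferon signaling list, Irf1, Rfx5, Rfxank and Ciita were not called higher. Irf1, which is induced by interferon gamma and binds the IRF site, had means of 12.5 ± 2.07 FPKM for WT and 9.89 ± 1.66 FPKM for LRP1 KO, an estimate of -0.31 (limma adjusted p 0.133). Rfx5 had an estimate of -0.15 (limma adjusted p 0.164), and Rfxank, its partner in the complex that recruits transactivators to class I and class II promoters, fell by 0.33 (limma adjusted p 0.0424). Ciita, the class II transactivator, was listed at 0 in all 4 WT libraries and in LRP1 KO libraries 2 and 4, and did not exceed 0.000754 FPKM. Among 12 interferon ligand and cytokine genes with a row, 8 were listed at 0 in every library, Ifng and the 6 interferon alpha genes among them. Il18, a cytokine that induces interferon gamma in lymphocytes and the only gene of this list to be tested, had means of 29.6 ± 3.21 FPKM for WT and 18.7 ± 0.964 FPKM for LRP1 KO and fell by 0.63 (limma adjusted p 0.00238), with no overlap. Tnf, also without overlap, was too low to be tested, at 0.0262 FPKM or less across WT and 0.129 to 0.223 FPKM across LRP1 KO.

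**Figure D3:**
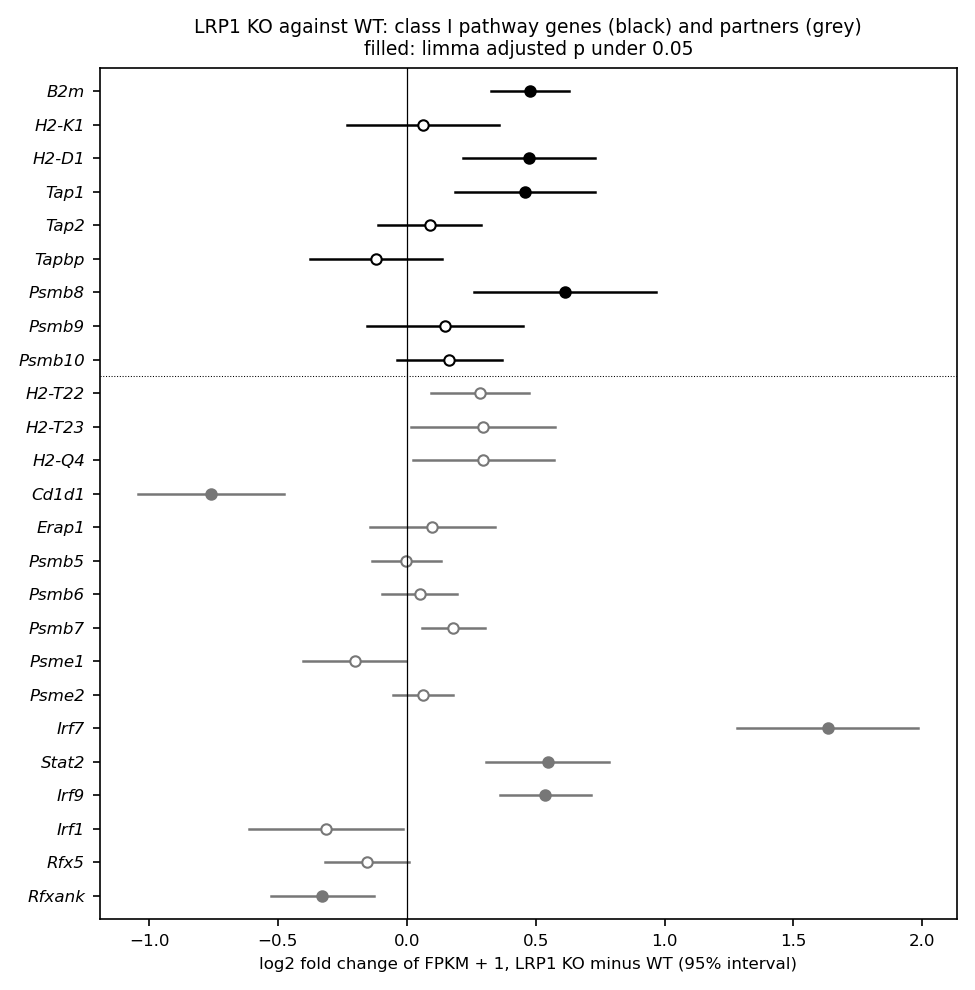
Log2 fold change of FPKM + 1 with its 95% interval for the 9 genes (black) and for partner genes (grey), LRP1 KO minus WT, with filled points for a limma adjusted p under 0.05. B2m, H2-D1, Tap1 and Psmb8 are filled near 0.5, while Irf7 lies at 1.63 and Cd1d1 at -0.76.

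Markers of other cell types moved with the groups. The 17 macrophage markers with a row summed to 51.6 to 90.2 FPKM across WT and to 329, 484, 193 and 441 FPKM across LRP1 KO libraries 1 to 4, with 6 of the 8 tested called higher. Of these 17, 7 stayed under 1 FPKM in all libraries and 0 were listed at 0 throughout. Csf1r, the receptor that macrophages depend on, ranged from 2.78 to 2.93 FPKM across WT and from 3.04 to 4.61 FPKM across LRP1 KO (limma adjusted p 0.0460). The other 5 called genes rose more. Lyz2, the lysozyme of myeloid cells, ranged from 23.99 to 54.3 FPKM across WT and from 129 to 334 FPKM across LRP1 KO (limma adjusted p 0.00205). The mean FPKM of Cd68, Lyz2, C1qc, C1qb and Mrc1 across LRP1 KO was 4.003, 6.33, 7.86, 9.13 and 9.22 times that of WT, without overlap for any of them. C1qa was not called (limma adjusted p 0.105), with 0.399 to 1.85 FPKM across WT and 2.47, 11.2, 1.08 and 12.1 FPKM across LRP1 KO libraries 1 to 4. Mertk, a receptor for the uptake of dead cells, was not called either, with 11.7 to 17.4 FPKM across WT and 11.9 to 15.6 FPKM across LRP1 KO and an estimate of -0.05 (limma adjusted p 0.8001).

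Of the 9 common leukocyte markers tested, 7 were called higher and 0 lower, with a median log2 fold change of 1.63. Tyrobp, an adaptor of activating receptors in myeloid and NK cells, had means of 3.75 ± 1.10 FPKM for WT and 26.7 ± 8.60 FPKM for LRP1 KO (limma adjusted p 0.000600). Laptm5 and Cd52 were 7.71 and 16.5 times as high in LRP1 KO by mean FPKM (limma adjusted p 0.000628 and 0.000389). Ptprc, the common leukocyte antigen CD45, was too low to be tested but did not overlap, at 0.0316 to 0.161 FPKM across WT and 0.403 to 0.860 FPKM across LRP1 KO, a ratio of means of 6.96. The 13 markers summed to 197 to 234 FPKM across WT and 213 to 277 FPKM across LRP1 KO, most of it from Arhgdib. This gene was not called and its estimate was below 0, with means of 202 ± 18.6 FPKM for WT and 174 ± 9.14 FPKM for LRP1 KO (log2 fold change -0.21, limma adjusted p 0.0817). Macrophages carry class I molecules themselves, and in bulk libraries more cells of a type and more RNA per cell cannot be told apart. The part of these cells in the increases of B2m, H2-D1, Tap1 and Psmb8 was not tested.

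The 13 lymphocyte and NK cell markers were under 1 FPKM in every library, summing to at most 0.335 FPKM, with Cd3e of T cells listed at 0 in all 8 and Cd79a of B cells at 0.0786 FPKM or less. Of 11 class II and dendritic cell markers, 2 were tested and 0 called, with sums of 16.2 to 22.6 FPKM across WT and 16.0 to 20.6 FPKM across LRP1 KO. The 20 endothelial markers summed to 207.4 to 224 FPKM across WT and to 749.9, 462, 547 and 213 FPKM across LRP1 KO libraries 1 to 4, with 2 of 18 called higher. Of the fibroblast markers, 0 were called higher and 2 lower. The 12 cardiomyocyte, hepatocyte and lung epithelial markers summed to 101 to 158 FPKM across WT and to 85.4 to 115 FPKM across LRP1 KO, and of the 2 tested, 0 were called higher and 1 lower. Most of each sum was Tnnt2, the gene of cardiac troponin T, with 95.5 to 152 FPKM across WT and 81.6 to 109 FPKM across LRP1 KO (limma adjusted p 0.107), so that it exceeded Cdh5 and Pecam1 in every library. Myh6, Actc1 and Tnni3, the other cardiomyocyte markers, reached at most 1.51, 1.97 and 1.33 FPKM in any library and were too low to be tested. Their mean FPKM across LRP1 KO was 3.44, 2.09 and 0.635 times that of WT, without overlap for Myh6 and Tnni3. Scgb1a1, the secretoglobin of airway club cells, fell by 0.85 (limma adjusted p 0.00770), and Alb, the albumin gene of hepatocytes, was at 0.108 FPKM or less. LRP1 KO library 4, with endothelial markers at the WT level, had the highest value of its group in 8 of the 9 class I pathway genes. LRP1 KO library 1, with the highest endothelial sum, had the lowest value of its group in 8 of 9. What these shares of cells contribute was not tested.

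**Figure D4:**
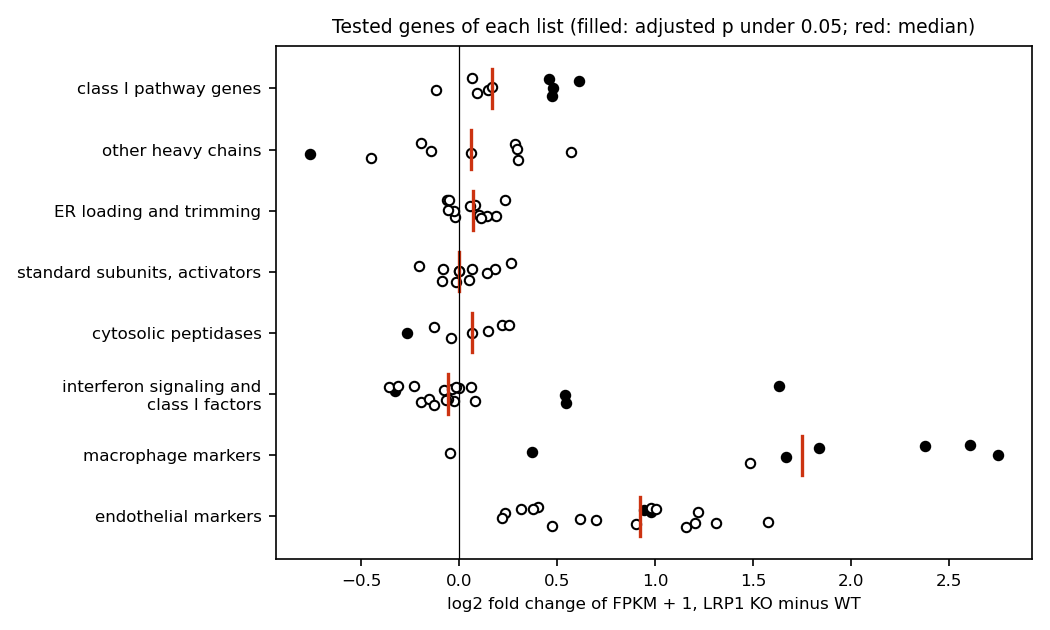
Log2 fold change of every tested gene of each list, LRP1 KO minus WT, with filled points for a limma adjusted p under 0.05 and the list's median in red; the vertical spread within a list has no meaning. The class I pathway genes have a median of 0.16, the macrophage markers one of 1.75 and the endothelial markers one of 0.92.

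Besides the groups, the libraries had an order of their own for these genes. The mean z score of the 9 genes, each gene centred and scaled over the 8 libraries, was -0.478, 0.342, -0.731 and -1.02 in WT libraries 1 to 4 and -0.291, 0.476, 0.276 and 1.43 in LRP1 KO libraries 1 to 4. WT library 2 was thus above LRP1 KO libraries 1 and 3. The 6 genes outside the pathway whose levels followed this score most closely over the 8 libraries were Tgtp2, Fam174a, Rnf114, Ly6e, Dnajc24 and Oraov1, with Pearson correlations of 0.983, 0.960, 0.959, 0.957, 0.952 and 0.932. Tgtp2, an interferon-inducible GTPase with a near-identical neighbour gene, ranged from 5.79 to 9.66 FPKM across WT and from 6.75 to 18.4 FPKM across LRP1 KO. None of the 6 was called between the groups, with limma adjusted p-values of 0.116 to 0.345.

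The calls of H2-D1, Tap1 and Psmb8 lay close to the threshold. Of the 8 fits that left out 1 library, H2-D1 and Tap1 were called in 3 each, Psmb8 in 2 and B2m in all 8. Calls over all tested genes also fell in these fits, from 1547 to between 512 and 1008, except without LRP1 KO library 4. H2-D1 was lost without LRP1 KO libraries 2 or 3 and WT libraries 1, 3 or 4 (adjusted p 0.0554 to 0.0773). Tap1 was lost without LRP1 KO libraries 2 or 3 and WT libraries 2, 3 or 4 (0.0761 to 0.0979), and Psmb8 in all fits but those without LRP1 KO library 4 or WT library 1 (0.0541 to 0.0804). Without the filter on low values all 3 were lost (adjusted p 0.0567, 0.0703 and 0.0701). The estimates themselves stayed between 0.40 and 0.57 for H2-D1, 0.39 and 0.55 for Tap1, and 0.49 and 0.69 for Psmb8.

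**Figure D5:**
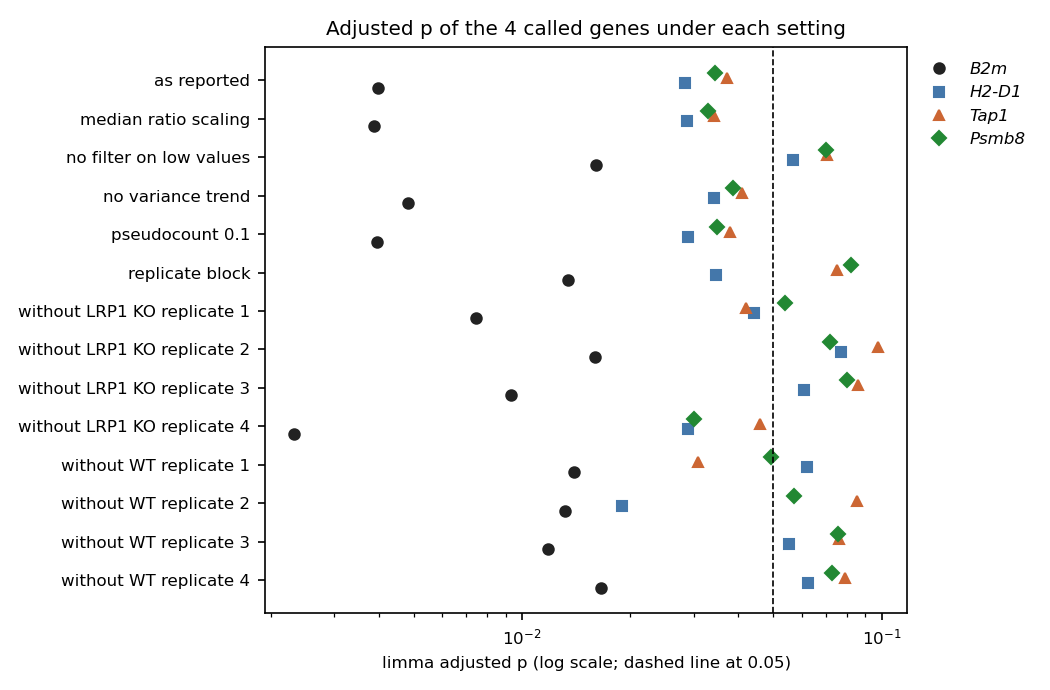
Limma adjusted p (log axis, dashed line at 0.05) of the 4 called genes in the analysis as reported and in 13 other settings. B2m is left of the line in all of them, and H2-D1, Tap1 and Psmb8 lie on both sides of it.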

How the data were processed

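RNA was isolated with an RNeasy kit, made into libraries with an Illumina TruSeq kit and sequenced in 4 WT and 4 LRP1 KO samples, grouped by their titles. The submitters' processing notes name TopHat2 and Cufflinks with the mm10 build, while the study's methods describe another aligner and a count-based test. The study's results treat liver cells apart from heart and lung cells. The deposited values are FPKM as inferred from Cufflinks, quantile normalized by the authors, so no counts or counting errors could be had, and the table's making is otherwise not given in the sources used here.

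Values were analysed as log2(FPKM + 1), which understates changes of low genes. Genes with at least 1 FPKM in at least 4 libraries were tested with limma 3.58.1 (R 4.3.3, variance trend, group as the only term), with Benjamini-Hochberg adjustment. The test was checked on simulated data. The 4 ratios were compared by exact permutation on log2 of the FPKM ratio. Alternatives were a pseudocount of 0.1, no filter, median ratio scaling, a replicate block, no variance trend and leaving out each library. Positions are from GENCODE M21.

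Genes named are the members, Lrp1, the called genes with the largest change in each pathway list (at most 4, ligands not included), fixed partners and markers, and the 6 genes most like the members' mean score. H2-Q4, H2-Q6, H2-Q7, H2-T22, H2-T23, Fcgrt, Procr, Mr1, Hfe, H2-M3, the ligands and cytokines, Cd68, Lyz2, C1qb, C1qc, Mrc1, Mertk, Tyrobp, Laptm5, Cd52, Arhgdib, Tnnt2, Myh6, Actc1, Tnni3, Scgb1a1 and Alb were named after their values were seen. The members and lists were chosen with earlier results of these data known. Not reported here are 1 gene of the interferon signaling list, left out of the list's counts and median, and 1 promoter motif that was searched.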

Additional observations from a re-analysis of the deposited data

Results flagged for a closer look

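Of the 18 groups of 4 libraries (9 genes, WT and LRP1 KO), 1 held a value set apart from the other 3 by Dixon's criterion. It was Psmb9 in WT library 4, at 0.639 FPKM against 0.951 to 1.01 FPKM in the other WT libraries. Chance sets apart about 1 in 20 groups.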

How the results depend on the processing

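Of the 9 genes, B2m kept its call in all 13 other settings, and H2-D1, Tap1 and Psmb8 theirs in 7, 6 and 5. The count of called class I pathway genes fell from 4 to 1 without a filter on low values and to 2 with a replicate block (Tap1 and Psmb8 lost, adjusted p 0.0752 and 0.0824), and was 1 to 4 when 1 library was left out. Without the filter more low genes entered the adjustment, and H2-D1, Tap1 and Psmb8 had adjusted p-values of 0.0567, 0.0703 and 0.0701. Over all genes, 1547 calls became 1013 with the replicate block and 512 to 3021 when 1 library was left out, the highest without LRP1 KO library 4. The estimate of H2-K1 was -0.028 without LRP1 KO library 4 and up to 0.17 without another library. Libraries of the same number in WT and LRP1 KO had correlated deviations of 0.158, 0.141, 0.340 and -0.312. Those of different numbers ran from -0.404 to 0.377. The values do not set libraries of the same number apart, but they cannot exclude a pairing. Median ratio scaling, a pseudocount of 0.1 and no variance trend left the count at 4. The log2 differences of the 4 tested ratios, read as values with no test when 1 library was left out, ranged from 0.56 to 0.79 for Psmb8 to Psmb5, 0.03 to 0.41 for Psmb9 to Psmb6, -0.09 to 0.08 for Psmb10 to Psmb7, and -0.28 to -0.12 for the heavy chains to B2m. With 1 added to each FPKM, Psmb9 to Psmb6 fell to 0.10 from 0.23. Depth is unknown, and Psmb9, near 1 FPKM, had the lowest level of the 9 genes.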
